A study of Mus musculus with 26 samples.

Results

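Arterial and venous identity genes were followed through the mouse RPE/choroid data. The members were taken as a list of textbook identity genes, 7 arterial (Efnb2, Gja4, Gja5, Sox17, Sema3g, Gkn3 and Bmx) and 3 venous (Nr2f2, Ephb4 and Ackr1), and are 10 of the 16426 genes in each single-cell count table. The list was chosen with earlier results of these data known. All 10 had a row in both tables. Of these, 8 had at least 10 UMIs (unique molecular identifiers, each standing for 1 captured RNA molecule) in the endothelial cell (EC) clusters of each library; Gja5 and Ackr1 did not.

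The study profiled cells of the RPE/choroid, the pigment epithelium behind the retina with its vascular bed, by scRNAseq in 2 libraries and deposited a cluster for each cell. One library came from B6129PF1/J mice, an F1 hybrid, and the other from C57BL/6J mice, all untreated and 90 days (3 months) old, with tissue of 1 male and 1 female pooled in each. Bulk RNAseq compared RPE/choroid of Cdh5-Cre ERT2 mice on C57BL/6J that were 6 months old and had received tamoxifen 12 weeks earlier. The Ihh+/+ controls thus carried Cre and received tamoxifen as well, and the Ihh iΔEC/iΔEC mice had Ihh loxP/loxP alleles removed in cells that use the Cdh5 promoter, which is active in ECs throughout the body; each group had 3 libraries. A last set of bulk libraries held cultured choroidal GLI1+ cells, given DMSO or the Smoothened agonist SAG at 100 nM for 24 h, with 3 libraries each. The cells were sorted from Gli1 GFP/+ mice, a line made in SWR/J that the study had outcrossed to BALB/c.

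Arteries and veins are lined by ECs that differ in their gene programs before and after flow begins. On the arterial side, VEGF and Notch signaling and SOXF transcription factors such as SOX17 act upstream of the ligand ephrin-B2 (Efnb2) and of the gap junction proteins connexin 37 (Gja4) and connexin 40 (Gja5). On the venous side, COUP-TFII (Nr2f2) holds Notch signaling down and the receptor EPHB4 (Ephb4) is kept, and ACKR1, a chemokine-binding receptor, marks venules in many adult tissues. The choroid is fed by short posterior ciliary arteries, spreads into the fenestrated choriocapillaris under the RPE, and drains into vortex veins.

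Promoter sequences were available in RefSeq (GRCm38.p6) for 9 of the 10 members; Sox17 had no entry. Those of 4 members are shown, each running from 250 bases before to 50 bases after the start site on the strand of the gene. Bmx and Gkn3 are given because they were almost absent from cluster 2 and from cells other than ECs, Gja4 because mural cells used it as well, and Ackr1 because it was almost not seen. Capitals mark matches on either strand to CAGGAA, the core of sites bound by ETS factors, or to AGGTCA, a half-site of nuclear receptors such as COUP-TFII.
Bmx, chrX:164258144-164258443, minus strand: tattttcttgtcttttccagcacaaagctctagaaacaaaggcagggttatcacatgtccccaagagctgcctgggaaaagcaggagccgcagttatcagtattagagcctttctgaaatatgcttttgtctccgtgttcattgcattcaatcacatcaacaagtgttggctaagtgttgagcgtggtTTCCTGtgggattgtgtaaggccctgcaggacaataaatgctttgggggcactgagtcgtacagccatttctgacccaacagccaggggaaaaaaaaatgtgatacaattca
Gkn3, chr6:87388886-87389185, minus strand: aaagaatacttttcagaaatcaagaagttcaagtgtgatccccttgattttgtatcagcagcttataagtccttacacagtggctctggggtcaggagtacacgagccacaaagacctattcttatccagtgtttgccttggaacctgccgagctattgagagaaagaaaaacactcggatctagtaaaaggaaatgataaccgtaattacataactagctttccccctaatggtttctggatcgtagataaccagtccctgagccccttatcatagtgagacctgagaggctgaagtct
Gja4, chr4:127313990-127314289, minus strand: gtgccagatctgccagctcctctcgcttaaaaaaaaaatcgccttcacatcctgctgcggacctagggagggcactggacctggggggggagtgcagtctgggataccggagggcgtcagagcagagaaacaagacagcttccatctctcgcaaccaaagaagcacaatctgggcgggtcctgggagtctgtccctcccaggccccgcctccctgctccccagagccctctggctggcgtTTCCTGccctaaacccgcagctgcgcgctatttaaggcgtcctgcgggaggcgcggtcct
Ackr1, chr1:173333454-173333753, minus strand: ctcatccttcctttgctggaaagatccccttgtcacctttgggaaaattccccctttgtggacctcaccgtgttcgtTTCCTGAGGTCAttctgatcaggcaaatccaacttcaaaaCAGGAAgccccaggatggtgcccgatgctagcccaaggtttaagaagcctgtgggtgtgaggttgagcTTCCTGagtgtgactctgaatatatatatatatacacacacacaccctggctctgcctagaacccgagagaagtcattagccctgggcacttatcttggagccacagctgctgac
CAGGAA was found once in Gja4, once in Bmx and 3 times in Ackr1, and in none of the other 6 member promoters. It was present in 30.6% of all 32851 promoters. AGGTCA was found once, in Ackr1, against 16.3% of all promoters. AACAAT, a core bound by SOX factors, was in none of the 9 and in 10.7% of all, and GTGGGAA, bound by RBPJ, the DNA-binding partner of Notch, was in none of the 9 and in 6.38% of all. The 9 windows spanned 42.7% GC (Gkn3) to 72.3% GC (Efnb2), around a median of 52.7% over all promoters. A match is a run of letters in a short window and not a bound site. Gene positions below are those of GENCODE vM21 on mm10.

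The B6129PF1/J library held 3637 cells with a median of 3881 UMIs per cell, and the C57BL/6J library 3928 cells with a median of 3174.5. ECs formed the deposited clusters 2, 3 and 4, which the study named by their Kdr level as Kdr-high, Kdr-medium and Kdr-low. They held 370, 430 and 63 cells in B6129PF1/J and 403, 549 and 72 cells in C57BL/6J. All 10 pan-endothelial markers were detected in each of the 3 clusters, with summed levels of 92 to 124 UMIs per 10,000. Of the cell barcodes, 22 occurred in both libraries, and 1 of these fell in the same cluster in both. The clusters were made by the authors from all genes, the members included, so that differences between clusters are given as descriptions. With 1 library per strain there was no replicate error and no test, and the 95% intervals below (exact Poisson for levels, exact binomial for shares and ratios) cover counting error only.

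The 7 arterial members all had their highest EC level in cluster 4, in both libraries. Over all 13 clusters, cluster 4 was the highest for 7 of 7 arterial members in B6129PF1/J and for 5 of the 6 that had at least 10 UMIs in C57BL/6J, whereas 9.23% and 8.88% of all genes had their maximum there. Gja5 met this minimum in B6129PF1/J only through cluster 4, which held 7 of its 11 UMIs, and so adds no support to that count. In C57BL/6J it had 9 UMIs and was not counted. Neither of the 2 venous members with enough UMIs peaked in cluster 4.

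**Figure D1:**
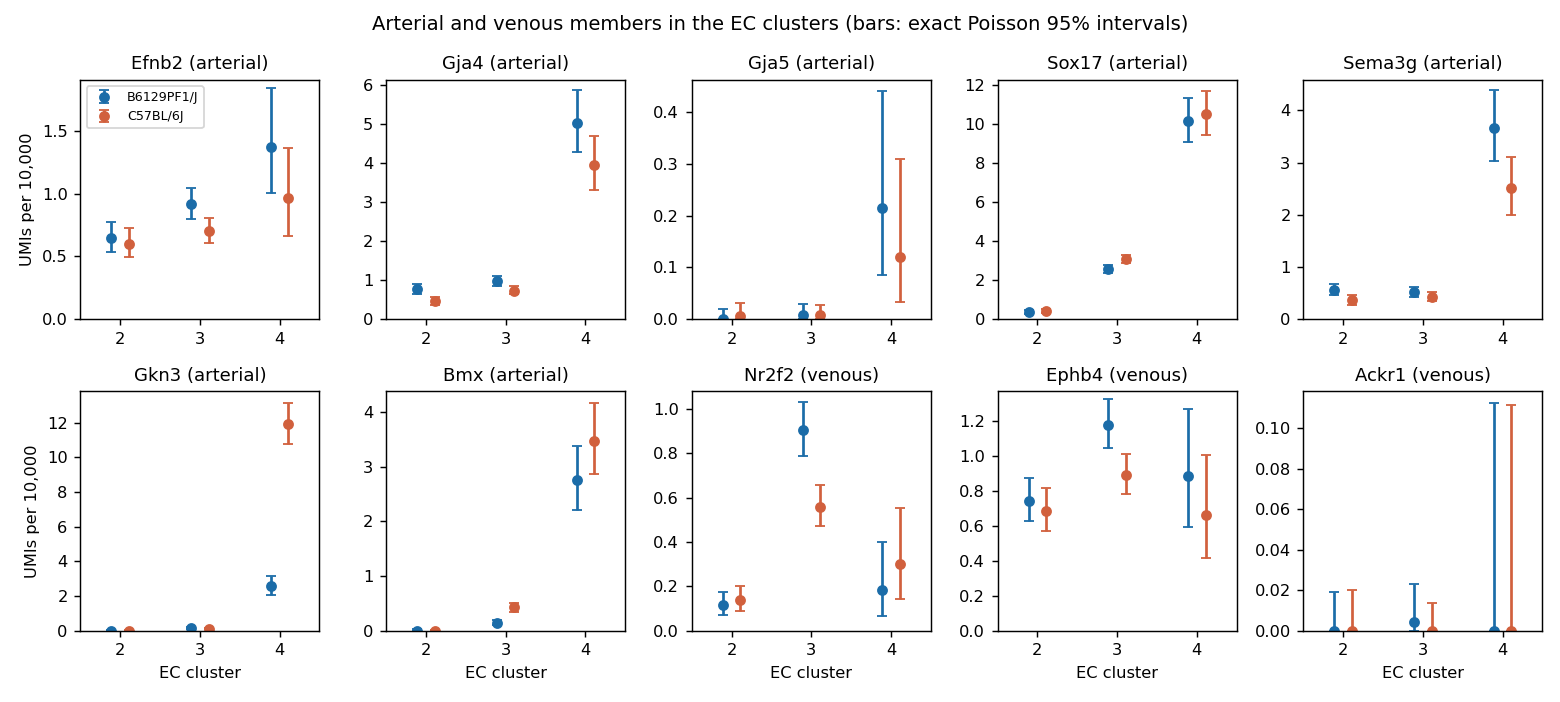
Level of each member (y axis, UMIs per 10,000, separate scale per gene) in EC clusters 2, 3 and 4 (x axis) in both libraries, with points for the summed level and bars for the exact Poisson 95% interval. The 7 arterial members are highest in cluster 4, Nr2f2 is highest in cluster 3, and the 2 libraries part most for Gkn3 in cluster 4 (2.57 against 11.9).

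Sox17 (chr1:4490931-4497354, minus strand), a SOXF transcription factor of arterial ECs, stepped up through the 3 clusters. In B6129PF1/J it measured 0.367, 2.57 and 10.1 UMIs per 10,000 in clusters 2, 3 and 4. In C57BL/6J the levels were 0.394, 3.06 and 10.5. The intervals of neighbouring clusters did not overlap in either library, and the ratio of cluster 4 to cluster 2 was 27.6 (21.3 to 36.3) in B6129PF1/J and 26.7 (20.6 to 34.9) in C57BL/6J. Sox17 was also the member seen in most cells: 92.1% and 91.7% of cluster 4 cells had at least 1 UMI, and 66.7% and 76.4% still did after each cell was thinned to 1700 UMIs. Of all Sox17 UMIs, 98% fell in ECs in each library, and no cluster outside the ECs exceeded 0.113 UMIs per 10,000.

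Bmx (chrX:164192842-164258193, minus strand), a cytoplasmic tyrosine kinase of arterial endothelium, and Gkn3 (chr6:87383256-87388935, minus strand), a small secreted protein known from arterial ECs of the brain, were almost absent from cluster 2 and highest in cluster 4, with a part of their UMIs in cluster 3. Bmx had 1, 34 and 90 UMIs in clusters 2, 3 and 4 of B6129PF1/J and 0, 115 and 115 in C57BL/6J, or 2.75 and 3.48 UMIs per 10,000 in cluster 4. Gkn3 had 2, 37 and 84 UMIs in B6129PF1/J and 1, 35 and 394 in C57BL/6J. Cluster 4 exceeded cluster 3 by 19.5 times (13 to 29.9) and 8.14 times (6.23 to 10.6) for Bmx, and by 16.7 times (11.2 to 25.4) and 91.7 times (64.8 to 134) for Gkn3. Outside the ECs both genes were almost absent, with at least 97% of their UMIs in clusters 2 to 4 of either library. In cluster 3 Bmx measured 0.141 in B6129PF1/J and 0.427 in C57BL/6J, 3.03 times as much (2.05 to 4.58), whereas Gkn3 at 0.153 and 0.13 did not differ there beyond counting error.

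Gkn3 was the member on which the 2 libraries disagreed most. In cluster 4 it measured 2.57 UMIs per 10,000 (2.05 to 3.18) in B6129PF1/J and 11.9 (10.8 to 13.1) in C57BL/6J, a ratio of 4.64 (3.66 to 5.94), and 5.84% of 6699 genes with at least 10 UMIs in this cluster were at least 2 times higher in C57BL/6J. No other arterial member differed by 2 times there: Sox17 had a ratio of 1.04 (0.889 to 1.21), Bmx 1.26 (0.951 to 1.68) and Sema3g 0.684 (0.511 to 0.913). Few cells carried the signal. In C57BL/6J 28 of 72 cells had no Gkn3 UMI, 9 had 10 or more, and the highest cell held 95 UMIs, 24.1% of the total; in B6129PF1/J 40 of 63 cells had none, 2 had 10 or more, and the highest held 18, or 21.4%. Without the highest cell of each library the levels were 2.05 and 9.22 and the ratio 4.51. After thinning, 23.8% of cluster 4 cells in B6129PF1/J and 54.2% in C57BL/6J still had a Gkn3 UMI. Each strain is 1 library of 2 pooled animals, so that strain, animals and library cannot be told apart.

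**Figure D2:**
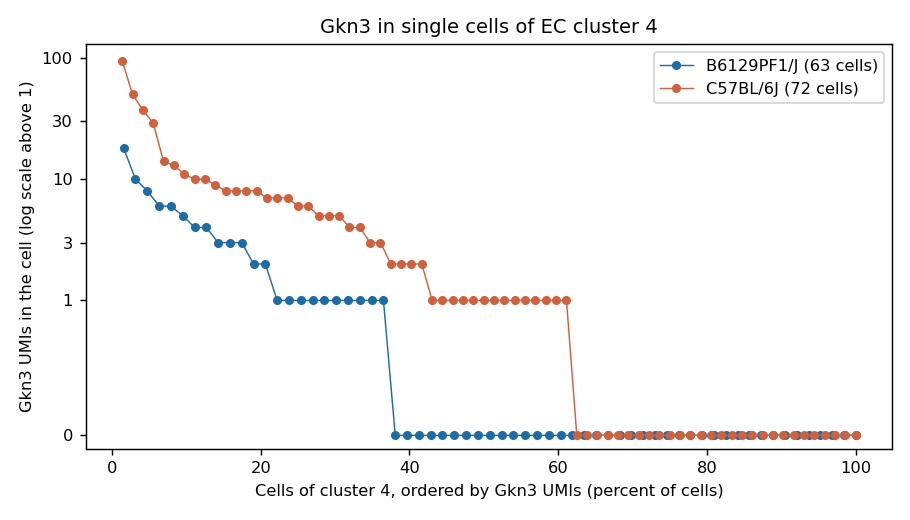
Gkn3 UMIs in every cell of EC cluster 4 (y axis, log scale above 1), with cells of each library ordered from highest to lowest along the x axis (percent of cells). The C57BL/6J curve lies above the B6129PF1/J curve from the highest cells (95 against 18 UMIs) to the last cells with a UMI, at 61.1% and 36.5% of cells.

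Sema3g (chr14:31217860-31230352, plus strand), a secreted semaphorin of arterial ECs, set cluster 4 apart from both other clusters, which were alike. Its levels in clusters 2, 3 and 4 were 0.556, 0.518 and 3.67 UMIs per 10,000 in B6129PF1/J and 0.361, 0.427 and 2.51 in C57BL/6J. Cluster 4 exceeded cluster 3 by 7.08 times (5.46 to 9.17) and 5.88 times (4.38 to 7.86), and clusters 2 and 3 did not differ beyond counting error. Sema3g was thus present at a low level in 20% and 12.7% of Kdr-high cells, where Bmx and Gkn3 were each seen in at most 1 cell. Outside the ECs, its highest level was in Schwann cluster 13, at 0.465 and 0.334.

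The connexins differed from each other in where they were seen. Gja4 (chr4:127311421-127314039, minus strand) reached 5.04 and 3.96 UMIs per 10,000 in cluster 4, which was 6.49 times (5.17 to 8.16) and 8.51 times (6.42 to 11.3) its level in cluster 2. It was not restricted to ECs, which held 25.2% and 20.8% of its UMIs. Smooth muscle cluster 9 reached 4.72 and 4.38, and stromal cluster 6, which had the highest sum of pericyte markers of the 13 clusters, 3.61 and 3.91. Cluster 4 over cluster 9 was 1.07 (0.898 to 1.26) and 0.904 (0.745 to 1.09), which did not differ beyond counting error. Cluster 4 over cluster 6 was 1.4 (1.17 to 1.66) in B6129PF1/J and 1.01 (0.835 to 1.22) in C57BL/6J, and cluster 9 exceeded cluster 6 in both (1.31, 1.18 to 1.45, and 1.12, 1.01 to 1.24). The 5 smooth muscle markers summed to 0.642 and 0.635 UMIs per 10,000 in cluster 4, against 272 in cluster 9 of each library, and Cnn1 was at 0 in cluster 4 of both. Pericyte markers summed to 1.41 and 1.84 in cluster 4. Gja4 in cluster 4 was 5.5 and 3.92 UMIs per 10,000 once cells with 2 or more UMIs of smooth muscle, pericyte or stromal markers were left out. Gja5 (chr3:96904693-97077416, plus strand), the other arterial connexin, was barely sampled, with 11 UMIs in one library and 9 in the other. Of these, 7 and 4 came from cluster 4, which held 6 and 4 cells with the gene, and it therefore fell under the minimum of 10 UMIs in every comparison with cluster 2 or 3.

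Efnb2 (chr8:8617434-8661242, minus strand), the membrane-bound ligand of EPHB4, had the smallest ratio of cluster 4 to cluster 2 of the 6 testable arterial members. It measured 0.646, 0.916 and 1.37 UMIs per 10,000 in clusters 2, 3 and 4 of B6129PF1/J and 0.602, 0.701 and 0.967 in C57BL/6J. The ratio of cluster 4 to cluster 2 was 2.13 (1.48 to 3.02) in the first and 1.61 (1.05 to 2.4) in the second. Over cluster 3 the ratio was 1.5 (1.06 to 2.08) and 1.38 (0.917 to 2.01), so that in C57BL/6J these clusters did not differ beyond counting error. ECs gave about as many Efnb2 UMIs as the rest of the tissue. The share was 55.7% and 50.9%, and smooth muscle cluster 9 held 0.794 and 0.759 UMIs per 10,000.

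At a fold of 2, 6 of the 6 testable arterial members were higher in cluster 4 than in cluster 2 in B6129PF1/J and 5 of 6 in C57BL/6J, Efnb2 being the exception, against 9.96% and 9.74% of all genes. Over cluster 3, 5 of 6 were higher in both libraries, Efnb2 again being the exception, against 6.56% and 6.45%. From cluster 2 to cluster 3, 3 of 6 (Sox17, Gkn3 and Bmx) were higher in both, against 10.3% and 9.3% of all genes. No arterial member was at least 2 times lower in any of these 3 comparisons. Against cluster 2, Bmx and Gkn3 met the minimum of 10 UMIs only through the cluster where they were high. They therefore add no support to the counts against cluster 2.

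Ephb4 (chr5:137350109-137378669, plus strand), the venous receptor of ephrin-B2, did not separate the clusters. It measured 0.745, 1.18 and 0.886 UMIs per 10,000 in clusters 2, 3 and 4 of B6129PF1/J and 0.684, 0.894 and 0.665 in C57BL/6J. Cluster 3 exceeded cluster 2 by 1.58 times (1.29 to 1.95) and 1.31 times (1.05 to 1.63). The ratios of cluster 4 to clusters 2 and 3 had intervals that included 1 in both libraries, so that Ephb4 in the cluster with the highest arterial members could not be told apart from its level in the other ECs. ECs held 75.9% and 75.2% of Ephb4 UMIs, which made it a general endothelial gene here.

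Nr2f2 (chr7:70351944-70366735, minus strand), which encodes the venous transcription factor COUP-TFII, had its EC maximum in cluster 3. Its levels in clusters 2, 3 and 4 were 0.115, 0.904 and 0.183 UMIs per 10,000 in B6129PF1/J and 0.137, 0.56 and 0.302 in C57BL/6J. Cluster 3 exceeded cluster 2 by 7.82 times (5.04 to 12.7) and 4.09 times (2.67 to 6.53). Nr2f2 was thus the 1 of 2 testable venous members past 2 times, against 10.3% and 9.3% of all genes. Cluster 4 was 0.203 of cluster 3 in B6129PF1/J (0.0737 to 0.449), a call that 17.9% of all genes shared, and 0.539 in C57BL/6J (0.253 to 1.02), where no venous member passed 2 times against 17.2% of genes. Over cluster 2, cluster 4 of C57BL/6J was 2.21 times higher with an interval that included 1 (0.946 to 4.76). There Nr2f2 was 1 of 2 testable venous members past 2 times, against 9.74% of all genes. In B6129PF1/J neither passed, against 9.96%. Cluster 3 levels also differed between the libraries, C57BL/6J being at 0.62 of B6129PF1/J (0.501 to 0.767).

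ECs made up a small part of Nr2f2 expression in the tissue. Stromal cluster 6 measured 4.09 and 3.93 UMIs per 10,000, smooth muscle cluster 9 3.04 and 3.17, and 7.4% and 6.19% of all Nr2f2 UMIs lay in ECs. The RPE, used here for comparison, had a Nr2f2 UMI in 13.8% and 13.6% of cells at median depths of 5263 and 3406.5 UMIs, and in 4.67% and 5.08% after thinning. Cluster 3 exceeded this with 12.8% and 9.47% after thinning, at median depths of 4147 and 3430. Clusters 2 and 4, at 1.35% and 1.49% and at 7.94% and 4.17%, were under or near it. The summed RPE level, 0.23 (0.179 to 0.291) and 0.36 (0.277 to 0.461) UMIs per 10,000, lay above that of cluster 2. The RPE thus gave no floor for Nr2f2, and whether its UMIs in clusters 2 and 4 were background was not tested. Cluster 3 also had more pericyte marker UMIs (sum of 5 genes 5.94 and 4.19 per 10,000) than cluster 2 (1.86 and 2.08) or cluster 4 (1.41 and 1.84). Without cells with 2 or more UMIs of smooth muscle, pericyte or stromal markers, Nr2f2 in cluster 3 was 0.676 (0.553 to 0.818) and 0.474 (0.375 to 0.592), and in cluster 2 0.0435 and 0.0684.

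Ackr1 (chr1:173331886-173333750, minus strand), the venular chemokine-binding receptor, was close to undetectable. Each library held 7 Ackr1 UMIs in all. In B6129PF1/J 1 of 863 ECs had a UMI, and in C57BL/6J 0 of 1024 ECs did, which allows a share of up to 0.293% of cells with a UMI. In each library 4 of the 7 came from stromal cluster 7, and the Schwann clusters held 1 in B6129PF1/J and 3 in C57BL/6J. An Ackr1-positive EC population was thus not detectable at this depth.

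**Figure D3:**
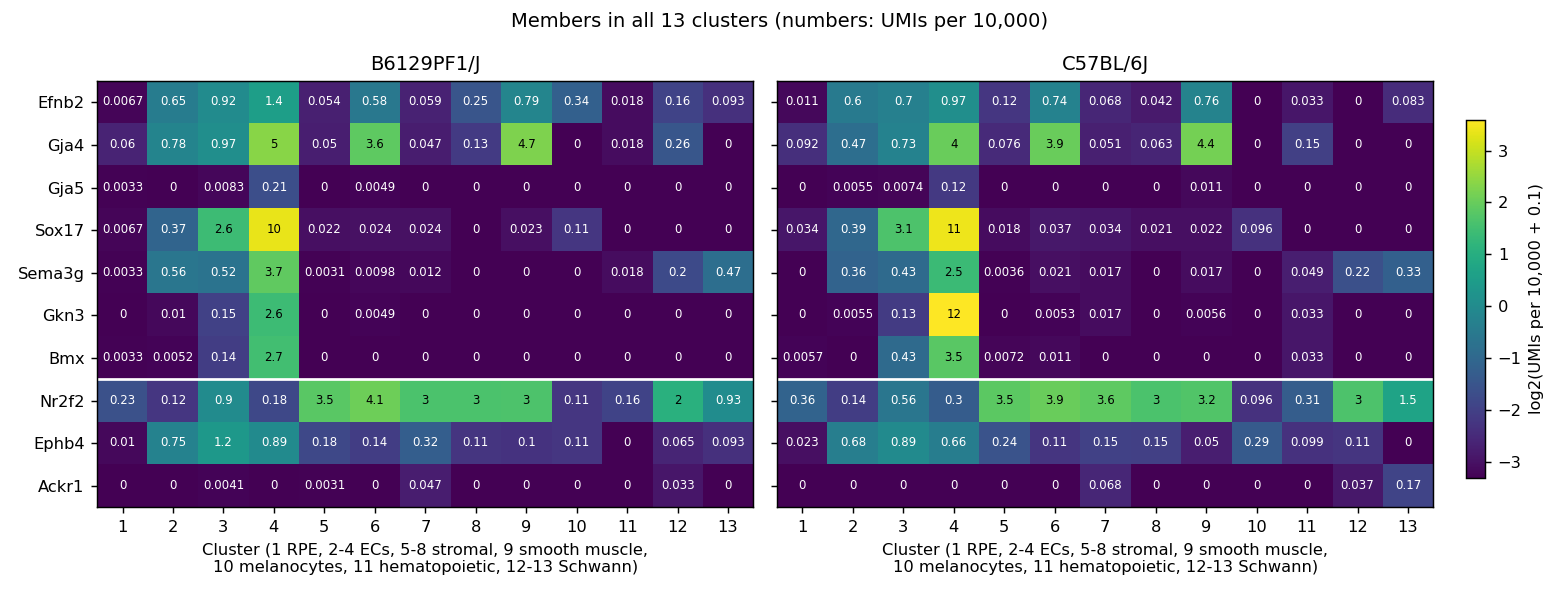
Levels of the 10 members (rows; arterial above the white line) in all 13 clusters (columns) of both libraries, with the level in UMIs per 10,000 printed in each tile and log2(level + 0.1) as color. Sox17, Sema3g, Gkn3 and Bmx stand out in cluster 4 alone or with cluster 3, Gja4 in clusters 4, 6 and 9, and Nr2f2 in clusters 5 to 9 and 12.

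Some single cells held UMIs of both arterial and venous members. After thinning to 1700 UMIs, 74.6% of cluster 4 cells in B6129PF1/J had arterial members only, 20.6% had both, 3.17% venous only and 1.59% neither. In C57BL/6J the shares were 79.2%, 16.7%, 1.39% and 2.78%. In cluster 3 the shares of arterial only, both and venous only were 43.5%, 10% and 16.3% in B6129PF1/J and 41.7%, 11.5% and 9.65% in C57BL/6J. Cluster 2 was mostly without any member, at 60.5% and 68%. The product of the separate shares of cells with an arterial and with a venous member was 22.7% and 17.3% in cluster 4 and 14.1% and 11.2% in cluster 3. The share with both lay near it, except in cluster 3 of B6129PF1/J, where its interval (7.33% to 13.2%) was under the product. Mural and stromal markers moved with this class. The 15 smooth muscle, pericyte and stromal markers summed to 22.1 and 18.4 UMIs per 10,000 in cluster 3 cells with both kinds of member, against 5.78 and 7.66 in arterial-only cells. Without cells with 2 or more such UMIs, an alternative chosen after seeing the data, the share with both in cluster 3 was 8.13% and 11%. With all UMIs kept, the share with both in cluster 3 was 42.6% and 33.9%. In the RPE, 1.23% and 1.87% of thinned cells had an arterial member only and none had both.

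**Figure D4:**
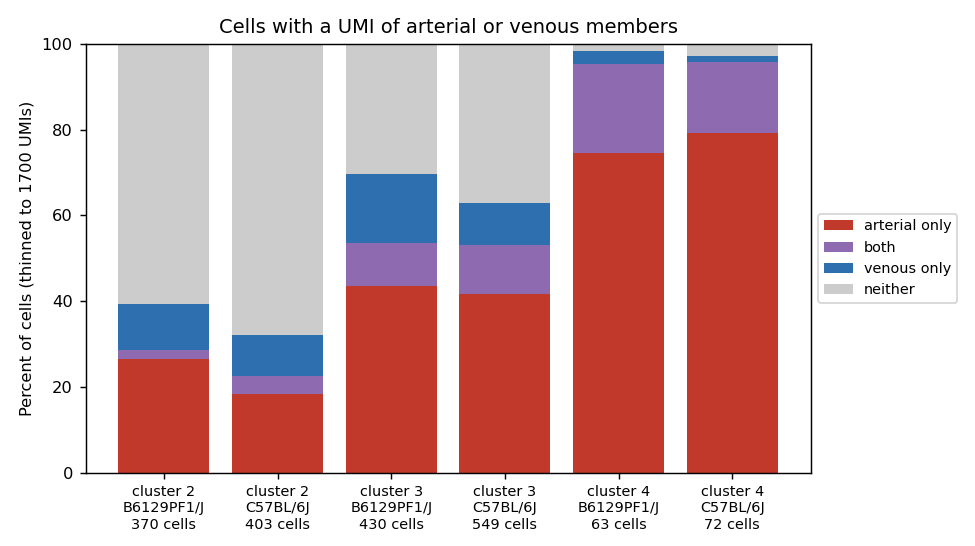
Percent of cells (y axis) of EC clusters 2, 3 and 4 in each library with a UMI of arterial members only, of both kinds, of venous members only, or of neither, after thinning each cell to 1700 UMIs. Arterial-only cells make up 74.6% and 79.2% of cluster 4, and venous-only cells are most frequent in cluster 3 (16.3% and 9.65%).

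Genes outside the 10 members were then read in cluster 3 cells sorted by which members they held. With all members used, the 187 arterial-only cells of B6129PF1/J had 4 of 21 other arterial genes at least 2 times higher than the 70 venous-only cells and none lower, while 7 of 22 other venous genes were at least 2 times higher in venous-only cells and none lower. The background was 6.8% of 8989 genes toward arterial-only and 4.76% toward venous-only cells. In C57BL/6J, with 229 and 53 cells, the 24 other arterial genes split into 3 higher and 1 lower, and of 23 other venous genes 1 was higher in venous-only and 5 in arterial-only cells, against 8.81% and 5.39% of 8856 genes. The arterial count of C57BL/6J was near the background (median log2 ratio 0.07). Only the other venous genes past 2 times pointed opposite ways in the 2 libraries. Their list as a whole had a median log2 ratio toward venous-only cells in each library (B6129PF1/J -0.56, C57BL/6J -0.13). Mural and stromal markers summed to 13.4 in venous-only and 5.78 in arterial-only cells of B6129PF1/J, where 4 of 4 stromal markers were at least 2 times higher in venous-only cells, and to 6.97 and 7.66 in C57BL/6J. The part of these markers in the counts was not tested.

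A narrower split, chosen after the levels above were seen, set cluster 3 cells with Nr2f2 against cells with Sema3g, Gkn3 or Bmx. Both were found in 2 of 430 cells in B6129PF1/J and 4 of 549 in C57BL/6J, where the product of the shares gave 5.5 and 6.72 cells. These counts are small, and whether they lie under the product was not tested. The 2 cells of B6129PF1/J had a median of 15189.5 UMIs and 121 mural and stromal marker UMIs per 10,000. The 4 cells of C57BL/6J had 4924.5 and 1.77. Of the other venous genes, 10 of 21 and 5 of 20 were at least 2 times higher in the Nr2f2 cells and none was in the arterial cells, against 7.5% and 7.67% of all genes. Of the other arterial genes, 7 of 18 and 3 of 19 were higher in the arterial cells and none in the Nr2f2 cells, against 7.64% and 6.01%.

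The genes named from this split were chosen after their values were seen. Selp, which encodes P-selectin, the adhesion molecule that catches leukocytes in venules, separated the cells in both libraries. It had 34 UMIs in the 53 Nr2f2 cells and 2 in the 41 arterial cells of B6129PF1/J, or 1.24 and 0.0913 UMIs per 10,000. In C57BL/6J it had 23 UMIs in 48 Nr2f2 cells and 0 in 67 arterial cells. Lrg1, a secreted glycoprotein enriched in venular ECs, measured 6.22 in Nr2f2 cells and 2.69 in arterial cells of B6129PF1/J, and 5.74 and 2.76 in C57BL/6J. Il6st, the shared receptor chain of the IL-6 family, measured 1.93 and 0.594 in the first library and 1.33 and 0.368 in the second. All 3 genes pointed the same way in both libraries, with ratio intervals that excluded 1. Since split and genes were picked from these same values, the intervals give counting error only and are no test. Icam1, an adhesion molecule on many activated ECs, did not differ beyond counting error (arterial over Nr2f2 cells 1.07, 0.761 to 1.49, and 1.01, 0.742 to 1.38).

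In the opposite direction, Dll4, the Notch ligand of arterial and tip ECs, measured 1.05 UMIs per 10,000 in arterial cells and 0.182 in Nr2f2 cells of B6129PF1/J, and 0.995 and 0.469 in C57BL/6J. Fbln2, an extracellular matrix protein, measured 2.1 and 0.436 in the first library and 1.14 and 0.547 in the second. Cxcl12, a chemokine of arterial ECs, had a ratio of arterial to Nr2f2 cells of 2.21 (1.65 to 2.98) and 1.71 (1.37 to 2.14). Cldn5, a tight junction protein of all ECs, had ratios of 2.31 (1.99 to 2.68) and 2 (1.79 to 2.25). All intervals excluded 1, again for genes picked from these same values. The median depth was 3863 UMIs in the arterial and 4020 in the Nr2f2 cells of B6129PF1/J, and 3271 and 3983 in C57BL/6J.

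Markers of mural and stromal cells moved with the Nr2f2 split. The 15 smooth muscle, pericyte and stromal markers summed to 15.6 UMIs per 10,000 in the Nr2f2 cells and 3.56 in the arterial cells of B6129PF1/J, and to 24.6 and 6.59 in C57BL/6J. When cells with 2 or more such UMIs were left out, the sums were 0.725 and 0.703, and 0.698 and 0.916. The other venous genes then stood at 7 of 19 and 5 of 17 higher in Nr2f2 cells and none in arterial cells, and the other arterial genes at 7 of 17 and 6 of 17 higher in arterial cells and none in Nr2f2 cells. Of all genes, 7.01% and 8.15% were then higher in Nr2f2 cells and 9.88% and 8.46% in arterial cells. The median log2 ratio of the other arterial genes was 0.75 in B6129PF1/J and 0.11 in C57BL/6J.

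The companion lists, written with earlier results of these data known, gave the setting of the members between clusters. Of 24 other arterial genes with enough UMIs, 18 were at least 2 times higher and 2 lower in cluster 4 than in cluster 2 in B6129PF1/J, and 20 were higher and 2 lower in C57BL/6J, with median log2 ratios of 2.72 in both against -0.06 and -0.07 over all genes. The share of all genes at least 2 times higher in cluster 4 than in cluster 2 was 9.96% and 9.74%, and at least 2 times lower 17.1% and 16.9%. Fbln5, an elastic fiber protein, measured 0.063, 0.187 and 5.19 UMIs per 10,000 in clusters 2, 3 and 4 of B6129PF1/J. In C57BL/6J the levels were 0.0383, 0.126 and 4.41. The 2 exceptions were Nrp1, a VEGF and semaphorin co-receptor, which fell from 18.5 in cluster 2 to 5.04 in cluster 4 of B6129PF1/J, and Igfbp3, which fell from 16.8 to 6.23. Both were lower in C57BL/6J too (16.2 to 5.23 and 19.2 to 6.13).

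Among Notch pathway genes, 4 of 14 were higher and 2 lower in cluster 4 than in cluster 2 in B6129PF1/J. In C57BL/6J 4 of 13 were higher and 3 lower. Of all genes, 9.96% and 9.74% were higher and 17.1% and 16.9% lower, so that the lower counts were near that share. The ligand Jag1 measured 0.22 in cluster 2 and 1.71 in cluster 4 of B6129PF1/J, and 0.29 and 2.27 in C57BL/6J, and the target Hey1 went from 0.541 to 1.53 and from 0.372 to 2.39. Hes1, another Notch target, measured 18.3 and 10.9 in B6129PF1/J, short of 2 times, and 19.9 and 9.49 in C57BL/6J, past it. Of the SOXF and ETS factors other than Sox17, 9 were testable in each library, and none in B6129PF1/J was higher or lower in cluster 4, while in C57BL/6J 1 was higher and 1 lower, near the shares of all genes (9.74% and 16.9%). The higher one was Sox7, another SOXF factor, at 0.361 in cluster 2 and 0.756 in cluster 4 of C57BL/6J, against 0.52 and 0.856 in B6129PF1/J. The lower one was Ets2, at 1.75 and 0.786 in C57BL/6J and 1.42 and 0.978 in B6129PF1/J.

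Other venous genes did not fall together in cluster 4. Against cluster 2, 7 of 19 were higher and 9 lower in B6129PF1/J, and 7 of 20 were higher and 7 lower in C57BL/6J. The shares of all genes were 9.96% and 9.74% higher and 17.1% and 16.9% lower. Against cluster 3, 1 of 24 was higher and 18 lower in B6129PF1/J, and 1 was higher and 13 lower in C57BL/6J. There 6.56% and 6.45% of all genes were higher in cluster 4 and 17.9% and 17.2% lower. From cluster 2 to cluster 3 the same list had 13 higher and 2 lower, and 12 higher and 1 lower, of 24. In that comparison 10.3% and 9.3% of all genes were higher and 4.14% and 4.4% lower. Vwf, which is most abundant in venous ECs and large vessels, measured 0.0735, 4.16 and 4.03 UMIs per 10,000 in clusters 2, 3 and 4 of B6129PF1/J and 0.115, 2.98 and 2.66 in C57BL/6J. Nrp2, a co-receptor of veins and lymphatics, measured 1.46, 2.26 and 0.244 in B6129PF1/J and 1.08, 1.73 and 0.212 in C57BL/6J. Vwf thus separated clusters 3 and 4 from cluster 2, and Nrp2 separated cluster 4 from the other ECs.

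Capillary genes were more often lower than higher in cluster 4. Of these, 9 of 13 were lower and 1 higher in cluster 4 than in cluster 2 in B6129PF1/J, and 8 of 14 were lower and 2 higher in C57BL/6J. This stood against 17.1% and 16.9% of all genes lower and 9.96% and 9.74% higher. Esm1, a proteoglycan of VEGF-responsive ECs, dropped from 5.61 to 0.0917 and from 6.81 to 0.181, and Ihh, the hedgehog ligand that the study deleted, from 3.2 and 3.36 in cluster 2 to 0 UMIs in cluster 4 of both libraries. The study had already reported Ihh as enriched in Kdr-high ECs of these same cells, so that its place in the capillary counts was known beforehand. Among 6 testable ephrins and Ephs, Epha4 was higher in cluster 4 (0.131 to 0.642 and 0.164 to 0.635) and Epha2 lower (0.625 to 0.244 and 0.624 to 0.121). Lymphatic ECs use several of the venous genes. Prox1, their defining factor, was at 0 in cluster 4 of both libraries, and the 4 lymphatic markers with a row summed to 0.0306 and 0.121 UMIs per 10,000.

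The genes whose profile over the 13 clusters of both libraries (26 points, which share depth and cluster assignment) was most like that of a member were named by Pearson's r of log2(UMIs per 10,000 + 0.1). Bmx and Gkn3 followed each other (r = 0.97), and Bmx was followed most closely by 8430408G22Rik (r = 0.98) and Degs2 (r = 0.98). Ssu2 came after Bmx for Gkn3 (r = 0.96). Sox17 was nearest to Syt15 (r = 0.99) and Syt7 (r = 0.98), and Sema3g to Arl15 (r = 0.94) and Enpp4 (r = 0.90). Gja4 was nearest to Tm4sf1 (r = 0.89) and Bcam (r = 0.88), and Efnb2 to Nes (r = 0.89) and Apold1 (r = 0.88). Nr2f2 was nearest to Rarres2 (r = 0.93) and to Zfhx4 (r = 0.92), both highest in stromal cluster 5, and Ephb4 to Cracr2b (r = 0.95) and Bmpr2 (r = 0.93), both highest in ECs. Gja5 and Ackr1 had too few UMIs to be placed.

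In bulk RPE/choroid the question was how these genes stood once ECs had lost Ihh, the ligand that stromal GLI1+ cells read. The deposited table holds the authors' average FPKM of each group of 3 libraries, with no values per library, so that no replicate error was computed and no test was run here. Ihh averaged 1.53 FPKM in Ihh+/+ and 0.454 in Ihh iΔEC/iΔEC mice, and the hedgehog target Gli1 9.4 and 3.15. In bulk tissue, fewer cells of a type and less RNA per cell cannot be told apart.

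None of the 7 arterial members passed 1.5 times in either direction, judged on log2(FPKM + 0.1), and 2 of the 3 venous members were lower by this measure. Over all 14488 genes that averaged at least 0.1 FPKM, 3.46% were lower and 3.47% higher. Nr2f2 averaged 11.5 FPKM in Ihh+/+ and 6.77 in Ihh iΔEC/iΔEC mice, a log2 ratio of -0.76. Ackr1 averaged 0.436 and 0.147, a log2 ratio of -1.12, at levels near the minimum. Ephb4, the third venous member, averaged 10 and 9.27.

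Among the arterial members, Sox17 came nearest to the limit, with 3.49 FPKM in Ihh+/+ and 2.32 in Ihh iΔEC/iΔEC mice (log2 ratio -0.57). With a pseudocount of 0.01 its log2 ratio was -0.59 and it passed 1.5 times, which made 3 members lower, 1 of them arterial. Gkn3 averaged 3.67 and 2.59, Gja4 6.03 and 5.06, and Bmx 0.847 and 0.679. Efnb2 (2.98 and 3.05), Gja5 (1.17 and 1.12) and Sema3g (6.23 and 6.68) were almost level. The 10 pan-endothelial markers had a median log2 ratio of -0.22 and none passed 1.5 times, beside -0.28 for Bmx and -0.25 for Gja4. Since clusters 6 and 9 together held more Gja4 UMIs than the ECs in the single-cell libraries, its bulk value reads mostly other cells.

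**Figure D5:**
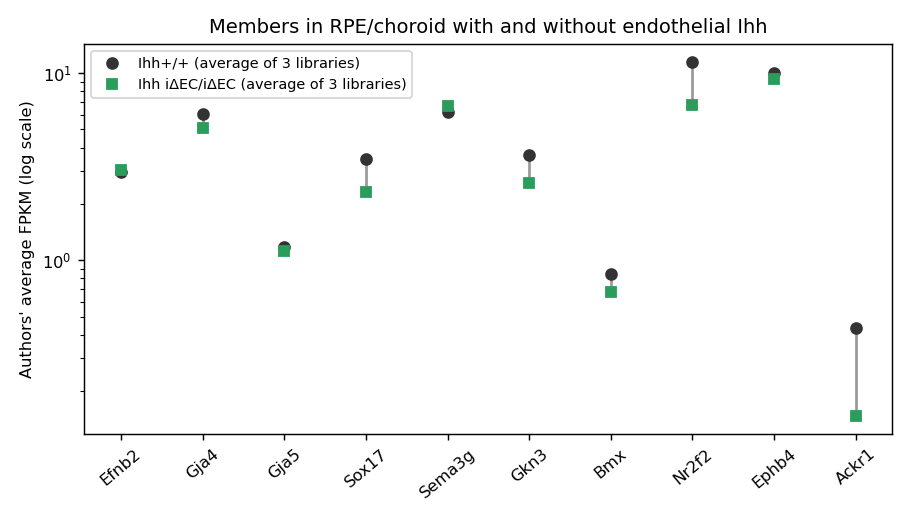
Authors' average FPKM (y axis, log scale) of the 10 members (x axis) in RPE/choroid of Ihh+/+ (circles) and Ihh iΔEC/iΔEC mice (squares), each an average of 3 libraries, with no values per library and so no error drawn. Nr2f2 (11.5 to 6.77) and Ackr1 (0.436 to 0.147) are the members past 1.5 times on log2(FPKM + 0.1), and Sox17 (3.49 to 2.32) lies at the limit, under it with this pseudocount and past it on the plotted averages.

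Stromal markers moved with Nr2f2. Of 5, 4 passed 1.5 times lower in Ihh iΔEC/iΔEC mice (Col1a1, Col1a2, Lum and Pdgfra), and Dcn had a log2 ratio of -0.57. Melanocyte markers were lower too, with 3 of 5 past 1.5 times and a median of -0.61. Pericyte and smooth muscle markers had medians of -0.26 and -0.11, and none of these 10 genes passed 1.5 times. Since ECs held under 8% of Nr2f2 UMIs in the single-cell libraries, the bulk value reads mostly other cells. The part of the stromal and melanocyte changes in the Nr2f2 value was not tested. Of the companion lists, 1 of 24 other arterial genes was lower and 2 higher, 0 of 23 other venous genes was lower and 1 higher, and 0 of 14 Notch pathway genes was lower and 2 (chosen after their values were seen: Hey1, 4.46 to 7.21 FPKM, and Dll1, 1.15 to 1.84 FPKM) were higher in Ihh iΔEC/iΔEC mice. The connexin list had 4 of 7 genes lower and 1 higher (median log2 ratio -0.76). Capillary genes had 3 of 15 lower and 0 higher (median -0.27). SOXF and ETS factors had 1 of 10 lower and 0 higher, and ephrins and Ephs 0 of 16 lower and 1 higher. Of all genes, 3.46% were lower and 3.47% higher.

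In cultured GLI1+ cells, 4 members were expressed above a mean of 0.1 FPKM, 2 arterial and 2 venous. With DMSO and SAG, Efnb2 averaged 10.7 and 11 FPKM, Ephb4 13.1 and 12.4, Sema3g 5.73 and 5.51, and Nr2f2 4.27 and 3.7. Gja4 averaged 0.101 and 0.028 FPKM, Gja5, Sox17 and Bmx stayed under 0.01, and Gkn3 and Ackr1 were listed at 0 in both. Gli1 averaged 0.028 FPKM with DMSO and 3.65 with SAG, and none of the 4 members passed 1.5 times either way, against 3.19% of 12741 genes lower and 2.01% higher. Ligand and receptor, Efnb2 and Ephb4, were thus both transcribed by these stromal cells in culture. In the tissue, Efnb2 ranged over stromal clusters 5 to 8 from 0.0535 (cluster 5) to 0.578 (cluster 6) UMIs per 10,000 in B6129PF1/J and from 0.0419 (cluster 8) to 0.736 (cluster 6) in C57BL/6J. Ephb4 ranged there from 0.111 to 0.318 and from 0.11 to 0.238.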

How the data were processed

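RPE/choroid was profiled by scRNAseq in 2 libraries and by bulk RNAseq. Per the submitters' processing notes, the tools were CASAVA 1.8.2, Cell Ranger, Seurat 2.1, FastQC, STAR 2.4.0f1, SAMtools 0.1.19, HTSeq, Cufflinks 2.0.2 and DESeq2, with the mm10 build. The authors deposited raw UMI counts per cell and gene after their own filter on cells, with a cluster number for each cell. Bulk values were deposited by the authors as average FPKM per group; their columns of log2 fold changes and adjusted p-values from their own comparisons were not used.

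UMIs were summed per library and cluster and divided by all UMIs of those cells, per 10,000. Cluster ratios were read at 2 times for genes with at least 10 UMIs in the compared clusters together, and bulk ratios at 1.5 times on log2(FPKM + 0.1) where both group averages together had a mean of 0.1 FPKM or more. Single-cell classes were made after thinning each cell to 1700 UMIs, below the lowest cell (1717), so that no cell was left out. No doublet caller was run, and an alternative left out cells with both Xist and Ddx3y UMIs. The floor for a count of 0 was 3 counts. Totals were 17168578 and 15230413 UMIs in B6129PF1/J and C57BL/6J.

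Members and gene lists were chosen with earlier results of these data known. Listed genes were named as at most the 4 of a list with the largest ratio of cluster 4 to cluster 2 in each direction (past 2 times in either library, same direction in both), beside defining markers and the 2 genes most like each member, and other genes are marked where they occur. Scripts were tested on simulated data and used Python 3.11.15, numpy 2.4.6, pandas 2.3.3, scipy 1.17.1 and matplotlib 3.10.9. Tables of averages per cluster, of choroid EC-enriched genes and of ECs of other organs were not used here.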

Additional observations from a re-analysis of the deposited data

Results flagged for a closer look

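Among the EC cluster ratios, 2 pointed in opposite directions in the 2 libraries. Ephb4 in cluster 4 over cluster 2 was 1.19 (0.768 to 1.78) in B6129PF1/J and 0.971 (0.588 to 1.54) in C57BL/6J. Sema3g in cluster 3 over cluster 2 was 0.931 (0.713 to 1.22) in B6129PF1/J and 1.18 (0.865 to 1.62) in C57BL/6J. All 4 intervals include 1, and the difference between the libraries was not tested.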

How the results depend on the processing

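Of the main results, which are counts of genes and shares of cells, 83 recomputed values stayed close to the main value and 16 moved. Close meant near the main count, or inside the interval of the main share, so that direction was not scored. For single members, 203 recomputed values were scored as the same and 7 as moved. The 203 are not a count of kept directions. The share of cluster 3 cells with both kinds of member (10% in B6129PF1/J, 11.5% in C57BL/6J) was 42.6% and 33.9% with all UMIs kept, 0.233% and 0.546% where 2 UMIs were required, and 5.81% and 6.92% without Nr2f2 and Efnb2. The arterial-only share of cluster 4 in B6129PF1/J was 58.7% with all UMIs. Without the minimum of 10 UMIs, 2 venous members were past 2 times in cluster 3 over cluster 2 of B6129PF1/J, the second being Ackr1 with 1 UMI. The Nr2f2 split, and the same split without cells holding mural or stromal UMIs, both chosen after seeing the data, moved other arterial genes from 4 to 7 and 7 in B6129PF1/J and, in the second, from 3 to 6 in C57BL/6J, and other venous genes from 1 to 5 and 5 in C57BL/6J; the cause was not tested. In the bulk comparison of Ihh genotypes, a pseudocount of 1 or a fold of 2 left 1 member lower instead of 2, and a pseudocount of 0.01 gave 3, with Sox17. With no minimum on FPKM, 1 member (Gja4) was lower with SAG. No paired analysis was possible because the bulk tables hold no values per library, and for the same reason no fit leaving out a library or with a replicate block was run. Depth limits Gja5 and Ackr1 most.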
